A study of Homo sapiens with 4 samples.

Results

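The BCL6 and LPP locus is a window of 1.3 Mb on chromosome 3, chr3:187400000-188700000 of the hg19 build, in which FOXA2 binding was mapped by chromatin immunoprecipitation and sequencing. It comprises every deposited peak whose summit falls in the window: 26 of 14846 peaks in PC3 cells given GSK2879552 and 35 of 21308 peaks in PC3 cells given vehicle. The window was chosen by peak numbers, because a 200 kb stretch inside it is dense in vehicle peaks, so its density is a description and carries no test. BCL6 occupies 187.44 to 187.46 Mb and LPP 187.87 to 188.61 Mb, ends that are known here to the nearest 10 kb. All peaks lay outside BCL6, and most lay inside LPP. Peaks were placed by position only, and which gene they act on was not tested.

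PC3 is a prostate cancer cell line that grows without androgen, and GSK2879552 inhibits the histone demethylase LSD1 (KDM1A). Treated cells received 50 µM GSK2879552 for 4 hours in medium with charcoal-stripped serum, and control cells received vehicle, for which no time is given separately. Each group has 2 samples, which are sequencing lanes described as technical replicates, and both lanes of a group share 1 peak list. The 2 lists therefore give no spread between cultures: no test between groups was made, no p-value is given, and the 95% intervals below cover counting error only. If the background of the peak caller was made without a control library, depth was 6.44 reads per kb in the GSK2879552 library and 6.17 in the vehicle library. Ratios called depth-scaled below were divided by 1.0021, the ratio of the lowest local backgrounds of the lists, and not by the ratio of these depths.

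FOXA2 is a forkhead factor that binds compact chromatin at enhancers of endoderm-derived tissues and is known in the prostate from neuroendocrine tumours; LSD1 removes methyl groups from histone H3 at enhancers and promoters. BCL6 encodes a zinc finger repressor known from germinal centre B cells, where distal enhancers lie in the gap between BCL6 and LPP. LPP encodes a LIM domain protein of focal adhesions and cell contacts, and the gene hosts MIR28 and the antisense transcript LPP-AS1. In RefSeq order 6 long non-coding RNA genes and 0 protein-coding genes lie between BCL6 and LPP.

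No FOXA2 peak was called at the outermost start of either gene, and the bases before these RefSeq starts are shown for that reason. A position with no called peak is not shown to be unbound. The windows are the 250 bases before a start in RefSeq's GRCh38.p14 build, on the strand of the gene, and cannot be set beside the hg19 peaks by position. They were searched on both strands for the forkhead cores TGTTTAC and TGTTTGC, written in capitals where present. The last window, before a start inside LPP, is shown because it alone holds a core. The windows lie at chr3:187745469-187745718 (minus strand), chr3:188152771-188153020 (plus strand) and chr3:188212462-188212711 (plus strand).
BCL6 outermost start: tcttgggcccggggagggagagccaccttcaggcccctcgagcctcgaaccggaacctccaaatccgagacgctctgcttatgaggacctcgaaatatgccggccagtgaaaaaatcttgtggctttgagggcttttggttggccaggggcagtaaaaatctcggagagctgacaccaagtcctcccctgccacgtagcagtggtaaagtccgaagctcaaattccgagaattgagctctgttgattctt
LPP outermost start: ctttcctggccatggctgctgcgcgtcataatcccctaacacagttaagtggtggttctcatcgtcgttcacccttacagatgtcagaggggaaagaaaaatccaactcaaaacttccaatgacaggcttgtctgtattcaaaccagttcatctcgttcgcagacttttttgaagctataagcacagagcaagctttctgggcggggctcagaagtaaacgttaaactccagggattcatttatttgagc
LPP inner start: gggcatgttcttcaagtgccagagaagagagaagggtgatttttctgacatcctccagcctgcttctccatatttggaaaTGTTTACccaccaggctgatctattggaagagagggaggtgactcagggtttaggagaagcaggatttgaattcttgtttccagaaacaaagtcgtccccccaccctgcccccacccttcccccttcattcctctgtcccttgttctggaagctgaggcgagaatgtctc

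A core was found before 0 of 2 BCL6 starts and before 1 of 7 LPP starts. Among all 35116 RefSeq windows of this length, 6.09% held either core, 2.98% TGTTTAC and 3.23% TGTTTGC. The sequence under the peaks was not used here, because no genome of the hg19 build was at hand.

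BCL6 itself was free of called peaks in both conditions. The summit nearest to BCL6 lay 172 kb above its upper end, which is the end where transcription starts, in the GSK2879552 list and in the vehicle list alike. On the other side, the nearest summits outside the window were 175 kb before its first base, with 14 fragments in GSK2879552 and 15 in vehicle. Fragments here means the number of sequenced fragments covering a summit, computed from the deposited fold and −log10 p. Beyond the last base of the window the next summit was 69.9 kb away with 21 fragments in GSK2879552, and 40.6 kb away with 18 fragments in vehicle.

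The gap between BCL6 and LPP held 4 peaks in each list, and each of them was kept, meaning that it overlapped a peak of the other list by at least 1 bp. Nearest to BCL6, the peak at chr3:187631482-187631826 had 55 fragments in GSK2879552, and its partner at chr3:187631495-187631896 had 54 in vehicle. The next site, 208 kb before LPP, had 34 fragments in GSK2879552 and 32 in vehicle. Fragments at these 2 sites were nearly equal. Their depth-scaled ratios of GSK2879552 over vehicle were 1.02 (95% interval 0.685 to 1.51) and 1.06 (0.635 to 1.77). Both intervals also hold 0.798, the median ratio over pairs outside the window, so these sites are not shown to differ from the rest. The site after those, 130.5 kb before LPP, had 15 fragments in GSK2879552 and 27 in vehicle, the lowest ratio of all pairs in the window at 0.554 (0.274 to 1.08). The last, 20.9 kb before LPP and the summit nearest to its start, had 61 fragments in GSK2879552 and 79 in vehicle. No peak was called closer to the LPP start on that side, and the first summit inside the gene was 76.6 kb in for GSK2879552 and 35.1 kb in for vehicle.

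**Figure D1:**
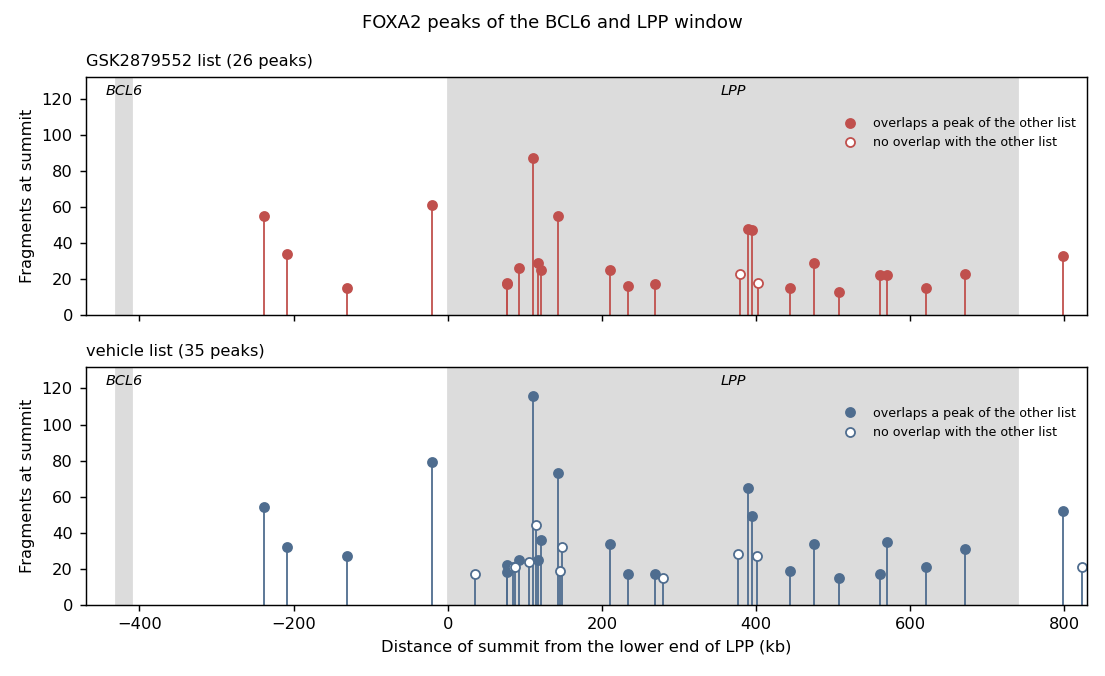
Fragments at the summit (y axis) against distance from the lower end of LPP in kb (x axis), for each peak of the window, GSK2879552 above and vehicle below. Grey bands mark BCL6 and LPP; filled points overlap a peak of the other list and open points (2 in GSK2879552, 11 in vehicle) do not.

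LPP held 21 peaks in GSK2879552 and 29 in vehicle. In its first 150 kb the numbers were 7 in GSK2879552 and 14 in vehicle, and 7 of the 14 vehicle peaks were lone, meaning that no GSK2879552 peak overlapped them, beside 38.0% over the whole vehicle list. In the rest of the gene they were 14 in GSK2879552 and 15 in vehicle, with 3 lone vehicle peaks. The overlapped share of vehicle peaks was 50.0% (exact interval 23.0 to 77.0) in the first 150 kb and 80.0% (51.9 to 95.7) in the rest. These intervals overlap, and each holds the 62.0% over the rest of the vehicle list. The 150 kb were set after the positions had been seen and take in most of the dense stretch by which the window was chosen.

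Over the whole window the ratio of peak numbers was near that of the rest of the genome. GSK2879552 over vehicle, it was 0.743 in the window, 0.711 on chromosome 3 outside it and 0.697 over the rest of the series. With the sites in both lists held fixed, the counting interval was 0.660 to 0.962 in the window and 0.691 to 0.703 over the rest. With the 2 numbers of the window taken as independent it was 0.429 to 1.27, but 24 sites are in both lists. Of the 13 unmatched peaks of the window 11 were in the vehicle list, or 84.6% (54.6 to 98.1), against 83.5% (82.7 to 84.2) over the rest. Peaks covered 6940 bp in GSK2879552 and 10538 bp in vehicle, a ratio of 0.659, against 0.657 over the rest. Of the vehicle peaks 11 of 35 had no GSK2879552 counterpart, or 31.4%, which is below the 38.0% of the whole list. Of the GSK2879552 peaks 2 of 26 had no vehicle counterpart, beside 10.8% over the whole list. The overlapped shares, 92.3% (74.9 to 99.1) of GSK2879552 peaks and 68.6% (50.7 to 83.1) of vehicle peaks, held the values of the rest of each list, 89.2% and 62.0%, within their intervals. On a grid of this length 2168 windows held a vehicle peak, and 14 others had at least as many as this one. The median was 6 peaks in GSK2879552 and 8 in vehicle.

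The strongest site of the window lay 111 kb inside LPP and was the same in both lists. At chr3:187980836-187981211 it had 87 fragments in GSK2879552, and at chr3:187980806-187981193 it had 116 in vehicle. It ranked 64 of 14846 in GSK2879552 and 55 of 21308 in vehicle by −log10 p. These ranks describe each list by itself, and no comparison between the lists was drawn from them. Its depth-scaled ratio was 0.748, and the interval of 0.560 to 0.997 lay below 1.

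Around this summit, from 105 to 121 kb inside LPP, the vehicle list had 5 peaks within 15.2 kb and the GSK2879552 list 3. The peak 117 kb inside LPP had 29 fragments in GSK2879552 and 25 in vehicle, and the one 121 kb inside had 25 in GSK2879552 and 36 in vehicle. Between the strongest site and these lay the strongest vehicle peak without a counterpart, chr3:187983902-187984141, with 44 fragments over a local background of 6.63, the highest background in the window. The nearest GSK2879552 summit was 2990 bp away. On the other side the vehicle peak at chr3:187975154-187975448, with 24 fragments, also stood alone, 5677 bp from the nearest GSK2879552 summit.

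A neighbouring group lay 143 to 148 kb inside LPP. Its leading site had 55 fragments in GSK2879552 and 73 in vehicle, a ratio of 0.752 (0.520 to 1.08). It was the only 1 of 3 vehicle peaks there with a GSK2879552 partner. The vehicle peak at chr3:188017651-188017852, with 32 fragments, and one with 19 fragments had none. Nearer the gene start, from 76.6 to 92.3 kb inside LPP, 3 GSK2879552 peaks stood against 5 vehicle peaks. The 3 kept sites there had 17, 18 and 26 fragments in GSK2879552, against 18, 22 and 25 in vehicle.

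About 390 kb inside LPP the lists differed in both directions. Both central sites were kept: the one at 390 kb had 48 fragments in GSK2879552 and 65 in vehicle, and the one at 395 kb had 47 in GSK2879552 and 49 in vehicle. On either side of them stood a GSK2879552 peak and a vehicle peak that did not overlap. Before them, chr3:188249062-188249260 was called in GSK2879552 with 23 fragments, and chr3:188246169-188246485 was called in vehicle with 28, their summits 2830 bp apart. After them, chr3:188272359-188272573 was called in GSK2879552 with 18 fragments, and chr3:188271316-188271542 in vehicle with 27, their summits 1056 bp apart. These are the only 2 peaks of the window called in GSK2879552 alone, and each stood beside a vehicle peak that was itself alone.

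The 3 sites 210 to 269 kb inside LPP were kept, with 16 to 25 fragments in GSK2879552 and 17 to 34 in vehicle. A vehicle peak at 279.5 kb, with 15 fragments, was lone. Kept as well were all 7 vehicle sites from 444 kb to the end of the gene. The pair 570 kb inside LPP had 22 fragments in GSK2879552 and 35 in vehicle, at 0.627 (0.351 to 1.10) the second lowest ratio. Only 9.3 kb before it, the pair at 561 kb had 22 fragments in GSK2879552 and 17 in vehicle, at 1.29 (0.655 to 2.59) the highest. The second highest was the site 117 kb inside LPP, at 1.16 (0.655 to 2.06). Past the end of LPP, 58.8 kb away, the pair at chr3:188668528-188669011 had 33 fragments in GSK2879552 and 52 in vehicle, a ratio of 0.633 with an interval of 0.397 to 0.998. Without the depth scaling, a factor of only 1.0021, its upper limit was 1.0005, which includes 1. The last vehicle peak of the window, 83.2 kb past LPP with 21 fragments, had no counterpart.

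**Figure D2:**
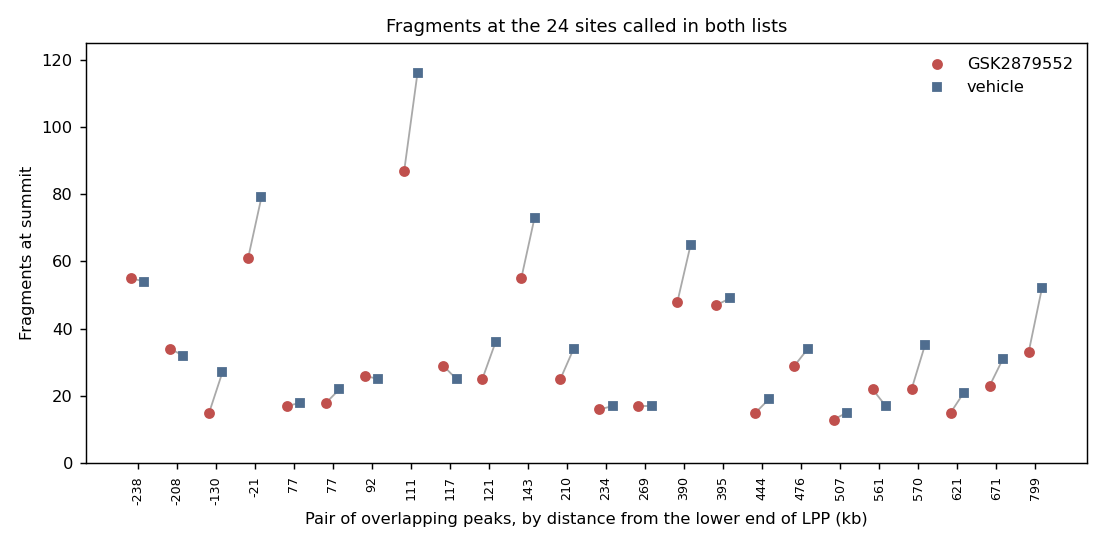
Fragments at the summit (y axis) for the 24 pairs, ordered along the window and named by distance from the lower end of LPP in kb (x axis), with circles for GSK2879552 and squares for vehicle. The GSK2879552 point is the lower at 18 pairs and the higher at 5.

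Most kept sites had lower fragment numbers in GSK2879552 than in vehicle. Pairs are overlapping peaks that are each other's best partner, and the window had 24. They cover only sites called in both lists, so the 11 lone vehicle and 2 lone GSK2879552 peaks enter none of these ratios. Over the pairs the median was 25 fragments in GSK2879552 and 31.5 in vehicle. The depth-scaled number was lower in GSK2879552 at 19 of 24 pairs, beside 83.7% of all 13200 pairs. Scaling counts pairs with equal fragments as lower, which were 1 pair in the window and 748 of all pairs. Without scaling the number was lower at 18 pairs in the window and at 10302 of all pairs. The median log2 ratio was -0.32 (interquartile range -0.44 to -0.05), against -0.33 on chromosome 3 outside the window and -0.32 over the rest of the series. Summed over the pairs there were 747 fragments in GSK2879552 and 913 in vehicle, a ratio of 0.816 (0.740 to 0.900), beside 0.798 (0.794 to 0.802) over the rest. The value of the rest lies inside the interval of the window. Fewer bound cells and fewer fragments per bound cell cannot be told apart in such data. With 1 peak list per group, neither can be told apart from a difference between the libraries themselves.

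A depth-scaled difference of at least 1.5-fold was reached downwards by 3 pairs, beside 24.9% of all pairs, and upwards by 0, beside 0.826% of all pairs. The 3 were those 130.5 kb before LPP, 570 kb inside LPP and 58.8 kb past its end. For single sites the counting error was wide: the interval lay below 1 at 2 of 24 pairs, beside 8.24% of all pairs, and above 1 at 0, beside 0.0227%. Without depth scaling it lay below 1 at 1 pair. The 13 pairs chosen neither for 40 or more vehicle fragments nor for an extreme ratio ran from 13 to 34 fragments in GSK2879552 and from 15 to 36 in vehicle, with 10 lower, 2 higher and 1 equal in GSK2879552. Among the 16 pairs with 25 or more vehicle fragments the median log2 ratio was -0.41, against -0.44 over the rest. Among the 8 with 15 to 24 it was -0.15, against -0.30. A division by the vehicle number favours lower ratios in its upper band. Pairs also leave out sites called in only 1 list, and the part of this in the bands was not tested.

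**Figure D3:**
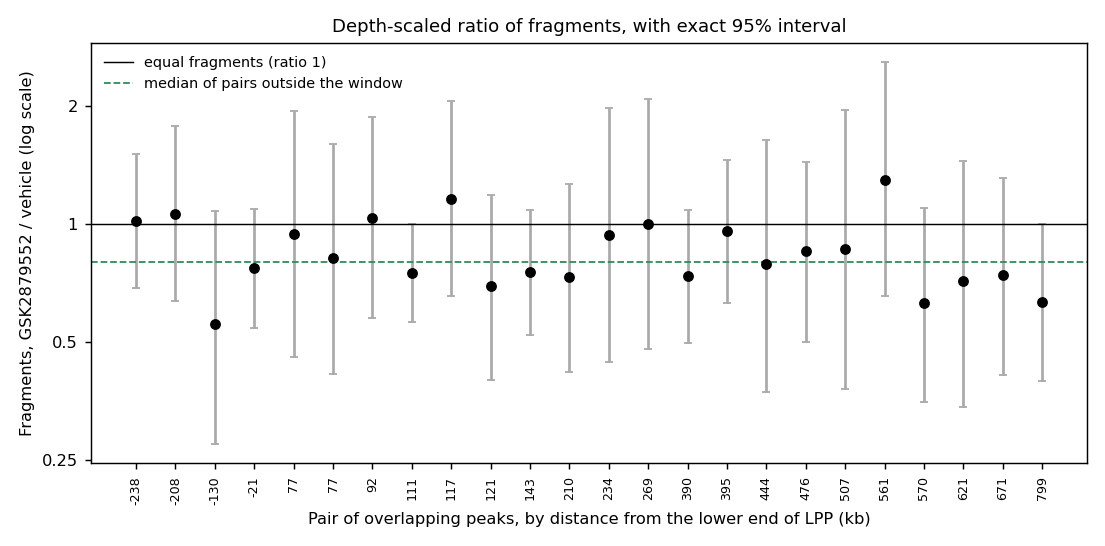
Depth-scaled ratio of fragments, GSK2879552 over vehicle (y axis, log scale), for the 24 pairs by distance from the lower end of LPP in kb (x axis), with exact 95% intervals of counting error. Points lie from 0.554 to 1.29 around the dashed median of 0.798 over pairs outside the window, and 22 intervals include 1.

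Most kept sites were also narrower in GSK2879552. The interval was shorter in GSK2879552 at 20 of 24 pairs and longer at 4, with medians of 262.5 bp in GSK2879552 and 323.5 bp in vehicle; over the rest of the series 75.0% of pairs were shorter. The fragment length used by the peak caller, taken as the shortest interval of each list, measured 168 bp for GSK2879552 and 175 bp for vehicle, and its part in this difference was not tested. Summits stayed in place, a median of 23.5 bp apart and at most 79 bp, against a median of 23 bp over the rest. The 2 closest summits of each list, 76.6 and 77.1 kb inside LPP, were 520 bp apart in GSK2879552 and 549 bp apart in vehicle.

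Vehicle peaks without a counterpart had lower median fragments and a lower median fold than those kept. Their median was 21 fragments (range 15 to 44) and a deposited fold of 5.59, against 31.5 fragments (15 to 116) and a fold of 8.78 for kept ones. The highest fold of a lone peak was 7.47, and 10 kept peaks lay below it. The lone peaks themselves set this limit, so the 14 of 14 vehicle peaks kept above it are a description. Above the same fold 88.6% of 9331 vehicle peaks were kept over the rest of the list. The 5 lone peaks with the most fragments had 44, 32, 28, 27 and 24, of which those with 28 and 27 are the ones 376 and 401 kb inside LPP. The remaining 6 had 15 to 21 fragments.

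Fragment number alone did not separate the lone peaks. Of vehicle peaks with 25 or more fragments, 16 of 20 were kept (80.0%, 56.3 to 94.3), against 94.7% (94.2 to 95.2) over the rest of the list, so the value of the rest lay just above the interval. With 15 to 24 fragments 8 of 15 were kept (53.3%), against 61.5%. Local backgrounds in the window had a median of 2.80 fragments in both lists, against 1.71 in GSK2879552 and 1.68 in vehicle over the rest. The part of the background in these shares was not tested. Divided by −log10 p, a division chosen after the first had been seen, 14 of 15 vehicle peaks at 20 or more were kept, against 97.5% over the rest. From 10 to 20 it was 9 of 16 vehicle peaks, against 61.4%, and under 10 it was 1 of 4, against 25.6%. In GSK2879552 9 of 9 were kept at 20 or more, against 99.9%, then 8 of 9 from 10 to 20, against 93.7%, and 7 of 8 under 10, against 75.1%.

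**Figure D4:**
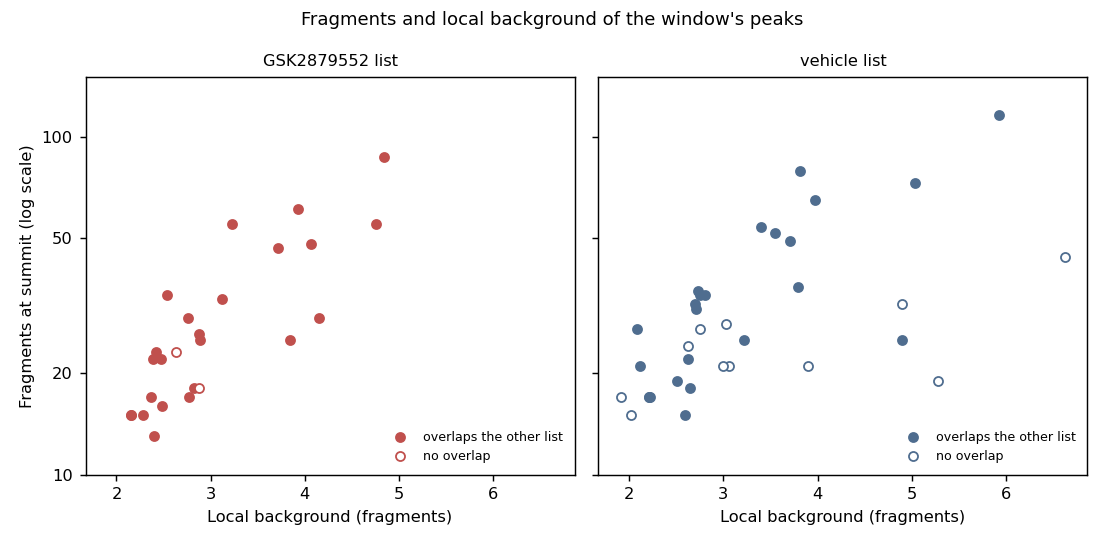
Fragments at the summit (y axis, log scale) against local background in fragments (x axis) for the window's peaks, GSK2879552 left and vehicle right; open points have no overlapping peak in the other list. Open vehicle points lie at 15 to 44 fragments over backgrounds of 1.91 to 6.63 and none has a fold above 7.47.

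Lone vehicle peaks often lay near a GSK2879552 summit. A GSK2879552 summit was within 5 kb of 6 of the 11 (54.5%, 23.4 to 83.3), against 12.9% of lone vehicle peaks over the rest of the list. A window chosen for its density brings summits close together, so this share is given as a description. Joining vehicle summits no more than 12.5 kb apart gave 20 clustered and 15 isolated peaks. Of the clustered ones 12 were kept (60.0%, 36.1 to 80.9) and of the isolated ones 12 (80.0%, 51.9 to 95.7). Over the rest of the list the shares were 64.9% (63.8 to 66.0) and 60.5% (59.6 to 61.3). The 2 intervals of the window overlap each other, and each holds the share of the rest. Clustered peaks had the higher local background, a median of 3.46 fragments against 2.71 for isolated ones, and its part in the shares was not tested.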

How the data were processed

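FOXA2 binding in PC3 cells was compared between 2 deposited peak lists, GSK2879552 and vehicle. The submitters' processing notes name BWA (0.7.2), SAMtools (0.1.18), MACS2 (2.1.2) and the hg19 (GRCh37) build. Options, calling threshold, duplicate handling and any control are not stated in those notes or labels. Per the labels' descriptions the assay is ATAC-seq, whereas titles and series name FOXA2 ChIP-seq, which was followed. The deposited fold is the ratio of fragments to local background at the summit, each plus 1. Significance against that background was deposited by the authors as −log10 of the p-value and of the q-value. The authors' score equals 10 times −log10 q.

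Computed here with Python 3.11.15 and scipy 1.17.1 was the whole number of fragments, under 1500, that returns the deposited −log10 p within 0.001. It was found for 100% of peaks, and on simulated data for 100% of 1939 GSK2879552 and 1956 vehicle summits. Ratios were scaled by the background floors, the lowest local background of each list, 1.082 in GSK2879552 and 1.079 in vehicle. This is a factor of 1.0021. A floor follows from both reads per kb and fragment length, 168 bp in GSK2879552 and 175 bp in vehicle. Scaling by reads per kb alone, 6.44 in GSK2879552 and 6.17 in vehicle, was not tried. Overlaps were checked with bedtools 2.31.1. Intervals are exact binomial 95% intervals. Given singly were pairs with 40 or more vehicle fragments, the 2 lowest and 2 highest ratios, GSK2879552-only peaks, the 5 vehicle-only peaks with most fragments, and summits nearest the gene ends; others named were chosen after their values were seen. Alternatives were stricter q limits, other overlap rules and bounds, no depth scaling and background subtraction. The window, lists and rules were chosen with earlier results of these data known. Symbols and promoters are RefSeq's (GRCh38.p14), matched by symbol for both genes.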

Additional observations from a re-analysis of the deposited data

How the results depend on the processing

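In the BCL6 and LPP window 46 alternative values were computed. They covered peak numbers, covered length, overlapped shares, fragment ratios, pairs past 1.5-fold and pairs whose interval lies below 1. Of the 46, 44 stayed within the interval of the reported value or, for the counts, within 1.5 times it, and 0 changed direction. Peak number was read against its independent interval of 0.429 to 1.27. Covered length was read against the interval of the peak numbers rescaled to its own ratio, 0.381 to 1.13. Both intervals hold 1, so a ratio of no change would also have stayed within them. The other overlap rules returned every reported value unchanged. The 46 also include the reported ratio of peak numbers itself, with the sites in both lists held fixed. One exception was pairs at least 1.5-fold lower in GSK2879552, which numbered 1 inside LPP alone, where 19 pairs are left, against 3 in the window. The other was pairs whose interval lies below 1, which numbered 1 without depth scaling, against 2. The depth factor was only 1.0021, so leaving it out could hardly move a value and is no check on depth. The median log2 ratio ran from -0.41 (−log10 q of at least 10) to -0.29 (LPP alone), and the ratio of peak numbers from 0.724 (LPP alone) to 0.826 (without the densest 200 kb). The interval with sites in both lists fixed, and the pairs whose interval lies below 1, were added after the data had been seen. Every alternative of peak number lay inside that fixed-site interval of 0.660 to 0.962. The covered-length ratio lay below it as reported (0.659) and inside LPP alone (0.621), and within it at the other settings. No lane could be left out, as neither lane has a list of its own. No paired analysis was possible because the lanes of a group share a list.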
